A study of Mus musculus with 8 samples.

Results

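The secreted factors followed here in sorted MAM326 cells are 10 that tumour cells use to draw in and instruct leukocytes: the chemokines Cxcl1, Cxcl2, Cxcl5, Cxcl12, Cxcl16, Ccl2 and Ccl5 and the cytokines Csf1, Il6 and Lif. They were taken as every non-control probe whose gene name in the array files is 1 of these 10 symbols, which gave 13 probes of 55681 and 10 genes of 34816 names. MAM326 is a mouse mammary cancer cell line, grown here in serum-containing medium and sorted by fluorescence-activated cell sorting 2 days after seeding. GFP-positive cells (4 arrays) were set against GFP-negative cells (4 arrays), from 4 experiments at different passages. The labels do not say what drives GFP, whether the line is 1 clone or which arrays came from the same experiment.

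Chemokines are small secreted proteins that guide cells along a gradient by binding receptors coupled to G proteins. The CXC chemokines that carry an ELR motif, Cxcl1, Cxcl2 and Cxcl5, attract neutrophils through Cxcr2, whereas Cxcl12 acts through Cxcr4 and Ackr3 and Cxcl16 through Cxcr6. Ccl2 draws monocytes through Ccr2, Ccl5 attracts T cells and monocytes, Csf1 sustains macrophages through Csf1r, and Il6 and Lif share the signalling subunit gp130, the product of Il6st. Many of these genes are textbook targets of the transcription factor NF-kappaB, and their short-lived messages respond quickly to culture conditions.

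The promoters of 6 of the 10 genes could be matched by symbol in a table of RefSeq promoters (GRCm38.p6): Cxcl1, Cxcl2, Cxcl12, Csf1, Il6 and Lif. The 250 bases before the start site are shown for 4 of them, because the levels of these 4 moved in pairs over the arrays, as described below. Capitals mark matches to a 10-base form of the NF-kappaB site (kappaB), GGGA followed by any 2 bases and TTCC, searched on both strands. The strand is plus for all 4, and the intervals are chr5:90890995-90891244 for Cxcl1, chr5:90903649-90903898 for Cxcl2, chr5:30012864-30013113 for Il6 and chr11:4257318-4257567 for Lif.
Cxcl1: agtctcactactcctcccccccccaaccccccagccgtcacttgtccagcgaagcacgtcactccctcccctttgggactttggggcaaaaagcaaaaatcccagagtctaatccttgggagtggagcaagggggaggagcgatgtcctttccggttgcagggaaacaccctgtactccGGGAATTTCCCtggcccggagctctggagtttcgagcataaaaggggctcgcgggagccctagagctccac
Cxcl2: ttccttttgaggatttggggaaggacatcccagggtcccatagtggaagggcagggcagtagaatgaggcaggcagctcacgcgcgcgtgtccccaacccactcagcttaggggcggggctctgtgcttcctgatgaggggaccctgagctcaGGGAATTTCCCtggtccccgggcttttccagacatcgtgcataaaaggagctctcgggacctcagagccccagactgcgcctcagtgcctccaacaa
Il6: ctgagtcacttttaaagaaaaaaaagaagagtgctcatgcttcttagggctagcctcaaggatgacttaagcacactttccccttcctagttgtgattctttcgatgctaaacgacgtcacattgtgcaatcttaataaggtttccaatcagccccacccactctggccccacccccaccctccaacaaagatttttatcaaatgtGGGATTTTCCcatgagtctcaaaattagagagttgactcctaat
Lif: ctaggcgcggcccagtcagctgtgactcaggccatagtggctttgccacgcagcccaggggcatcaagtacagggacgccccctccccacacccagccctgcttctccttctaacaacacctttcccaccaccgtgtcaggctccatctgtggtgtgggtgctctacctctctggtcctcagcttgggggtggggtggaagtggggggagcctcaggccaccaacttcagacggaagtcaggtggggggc

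Cxcl1 and Cxcl2 carried the same run, GGGAATTTCCC, which holds 2 overlapping matches on opposite strands, starting 71 and 70 bases before the start of Cxcl1 and 97 and 96 bases before that of Cxcl2. The Il6 window had 1 match, 44 bases before the start, and the Csf1 window, not shown, had 1 match, 154 bases before it. The Lif and Cxcl12 windows had 0 matches. Over all 32851 windows of the same length in that table, 1.21% held a match. The AP-1 form TGANTCA, found in 6.75% of all windows, was present in the Il6 and Lif windows, and the form TTCNNNGAA of STAT sites, found in 7.02%, was in 0 of the 6. These are letter matches, not sites shown to be used.

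All 13 probes were well above background on all 8 arrays, so every one of the 10 messages was measured in both fractions. None of the 10 genes differed between GFP-positive and GFP-negative cells by limma at an adjusted p of 0.05. Over all 19709 features tested (the brightest probe for each gene, where 4 or more of the 8 arrays had it well above background), 505 or 2.56% passed, 1.82% higher and 0.741% lower. Of the 10 genes 7 had a positive and 3 a negative difference, and their median difference was 0.20 log2 units, against -0.062 over all features. At an unadjusted p under 0.05 the count was also 0 of 10, against 23% of all features (7.83% higher and 15.1% lower). The 2 groups overlapped for each of the 13 probes, whereas they did not overlap for 16.7% of all features (5.07% higher and 11.6% lower). No member differed 2-fold in either direction, against 2.05% of features that were 2-fold or more higher and 0.695% that were 2-fold or more lower. Levels below are log2 processed signals with each array's 75th percentile set to 0, and no probe is ranked against another by level. Since whole sorted fractions were measured, fewer cells expressing a gene and less RNA per cell cannot be told apart.

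The spread between arrays was wide for these genes. The pooled SD within groups had a median of 0.64 over the 10, against 0.18 over all features, and it was larger than that of 75.6% of features for Cxcl12 and of 99% for Ccl2. The probes of Ccl2 and of 1 Csf1 transcript were each printed as 10 spots per array, which gives the spread of repeat spots on an array. For Ccl2 the SD of repeat spots was 0.046 to 0.112 on the log2 scale, against SDs between arrays of 1.24 among GFP-positive and 1.01 among GFP-negative arrays. For Csf1 it was 0.019 to 0.082, against 0.41 among GFP-positive and 0.473 among GFP-negative arrays. The other 11 probes had 1 or 2 spots per array, so these SDs speak for the 2 bright probes alone, and the SD between arrays covers every step from culture to scan.

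**Figure D1:**
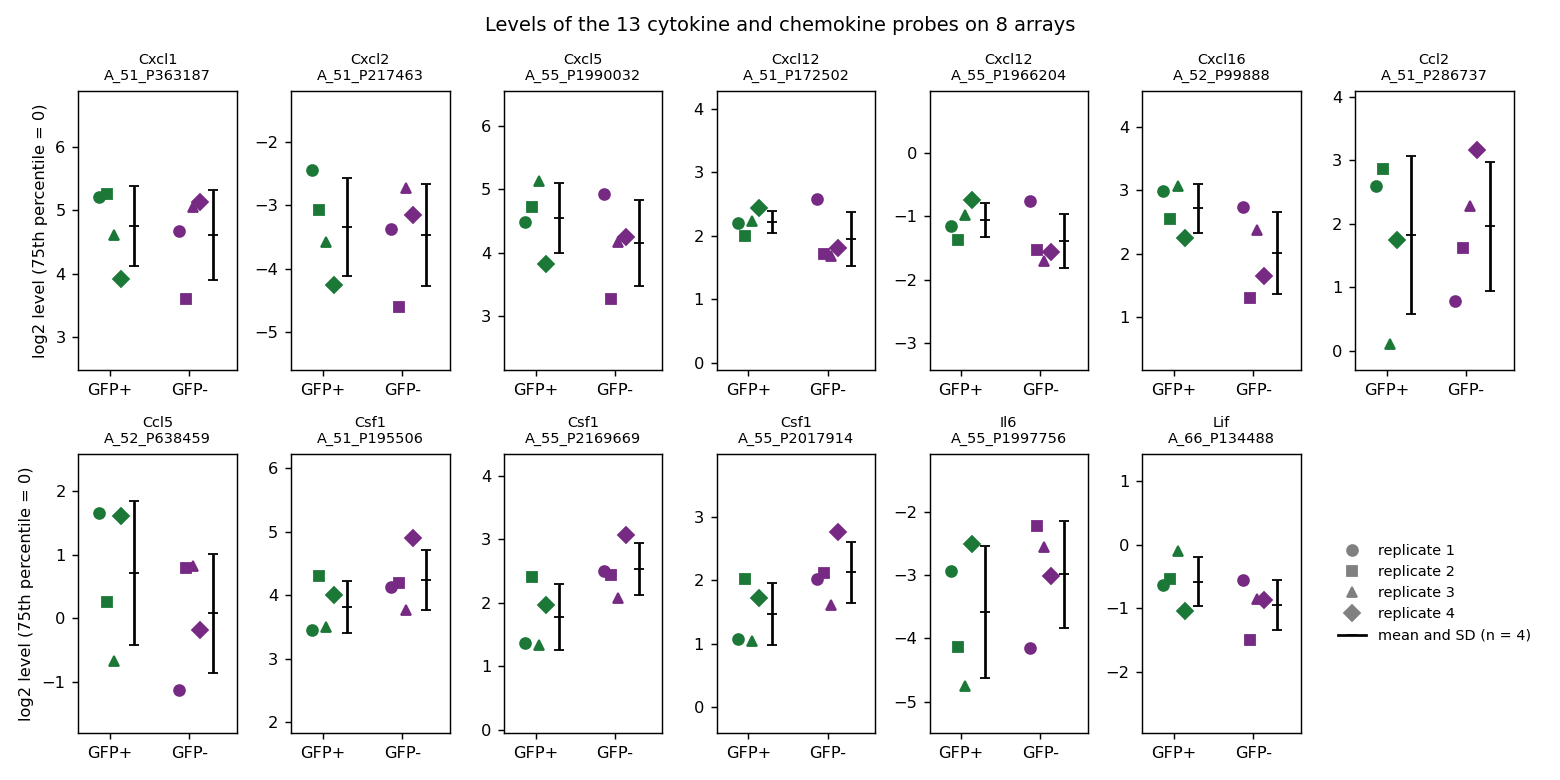
Log2 levels (vertical axis, 75th percentile of each array at 0, every panel spanning the same number of log2 units) of the 13 probes in GFP-positive (green) and GFP-negative (purple) arrays, with symbols for replicates and bars for the mean and SD of 4 arrays. The groups overlap in all 13 panels, and Ccl2 and Ccl5 have the widest spread.

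Of the neutrophil chemokines, Cxcl1 had levels of 5.21, 5.26, 4.61 and 3.92 in GFP-positive replicates 1 to 4, against 4.68, 3.60, 5.05 and 5.13 in GFP-negative replicates 1 to 4. The lowest array was GFP-negative replicate 2 and the highest GFP-positive replicate 2, and the other 6 lay between them with the fractions mixed. The difference was 0.13 ± 0.41 (SE; adjusted p = 0.881, limma), and its 95% interval ran from 0.566-fold to 2.13-fold. Its probe lies on chr5:91321845-91321904 (mm9, plus strand), as the files give it.

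Cxcl2, its neighbour, had -2.44, -3.07, -3.58 and -4.26 in GFP-positive cells, against -3.37, -4.60, -2.73 and -3.15 in GFP-negative cells. GFP-positive replicate 1 was highest and GFP-negative replicate 2 lowest, 4.48-fold apart. The difference was 0.12 ± 0.49 (SE; adjusted p = 0.908, limma), and 0.059 with normexp background correction. Its probe was near the dim end, with processed signals of 22.5 to 98.3, though well above background on every array. Cxcl1 and Cxcl2 are close paralogs, so how far each probe detects the other transcript is uncertain. The longest run of bases shared by their 60-base probes was 6. Neither probe was compared with the other transcript, so that run does not settle the question.

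Cxcl5, a further ELR chemokine of the same cluster on chromosome 5, had 4.49, 4.73, 5.14 and 3.82 in GFP-positive cells, against 4.93, 3.28, 4.18 and 4.25 in GFP-negative cells. GFP-positive replicate 3 was highest and GFP-negative replicate 2 lowest. The difference was 0.39 ± 0.38 (SE; adjusted p = 0.585, limma), and its interval ran from 0.710-fold to 2.41-fold.

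Cxcl16 is a chemokine made as a membrane protein and released by the protease Adam10, and it had the largest difference of the 10 among the probes that represented the genes (1 other Csf1 probe, described below, differed by -0.75). Its levels were 2.99, 2.55, 3.07 and 2.25 in GFP-positive cells, against 2.73, 1.31, 2.37 and 1.65 in GFP-negative cells. GFP-positive replicates 1 and 3 were highest, but GFP-negative replicate 1 exceeded GFP-positive replicates 2 and 4. The difference was 0.70 ± 0.33 or 1.63-fold (adjusted p = 0.252, limma), with a 95% interval from 0.953-fold to 2.77-fold. The first 30 bases of its probe, on chr11:70267780-70267839 (mm9, minus strand), are printed in lower case to show which stretch was read.
Cxcl16 probe: tgtaaagttctaggttcaaccctcccacta

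The 3 features whose levels were most like those of Cxcl16 over the 8 arrays were Serinc2, Slc25a48 and Tgif1, with Pearson's r of 0.990, 0.987 and 0.986. Tgif1 encodes a homeodomain repressor of TGF-beta responses and Slc25a48 a mitochondrial carrier. Like Cxcl16 they did not pass the threshold, with differences of 0.68 for Serinc2, 0.82 for Slc25a48 and 0.28 for Tgif1 (adjusted p = 0.226, 0.330 and 0.321, limma).

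Cxcl12, best known as a product of stromal cells that retains leukocytes and guides Cxcr4-bearing tumour cells, was read by 2 probes. The probe annotated to NM_001012477, which represented the gene in the fit, had 2.2, 2.00, 2.23 and 2.44 in GFP-positive cells, against 2.58, 1.72, 1.68 and 1.81 in GFP-negative cells. GFP-negative replicate 1 was the highest of the 8 and the other 3 GFP-negative arrays were the lowest. The difference was 0.27 ± 0.21 (SE; adjusted p = 0.466, limma). The probe of NM_021704 had -1.06 ± 0.26 in GFP-positive cells and -1.39 ± 0.43 in GFP-negative cells (SD, n = 4 each), a difference of 0.33 (adjusted p = 0.427 among all kept probes, limma), and again GFP-negative replicate 1 (-0.77) stood above the other 3 (-1.53, -1.71 and -1.57).

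Ccl2, the monocyte chemokine MCP-1, spread the most. Its levels were 2.60, 2.86, 0.11 and 1.74 in GFP-positive cells, against 0.78, 1.62, 2.29 and 3.17 in GFP-negative cells, so that the lowest array (GFP-positive replicate 3) and the highest (GFP-negative replicate 4) were 8.31-fold apart. The fractions were mixed throughout that range. The difference was -0.14 ± 0.70 (adjusted p = 0.929, limma), with an interval from 0.299-fold to 2.77-fold, which does not limit the change to under 2-fold in either direction.

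Ccl5, also called RANTES, had 1.66, 0.25, -0.68 and 1.62 in GFP-positive cells, against -1.13, 0.80, 0.83 and -0.19 in GFP-negative cells. GFP-positive replicates 1 and 4 were the highest arrays, while GFP-positive replicate 3 was second lowest after GFP-negative replicate 1. The difference was 0.64 ± 0.64 (adjusted p = 0.594, limma), and the interval reached 4.32-fold.

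Csf1, the macrophage colony-stimulating factor, was the member with 3 probes, and all 3 were lower in GFP-positive cells on average. The probe of NM_007778, which represented the gene, had 3.45, 4.31, 3.51 and 4.00 in GFP-positive cells, against 4.14, 4.19, 3.77 and 4.90 in GFP-negative cells. GFP-negative replicate 4 was highest and GFP-positive replicates 1 and 3 were lowest. The difference was -0.43 ± 0.28 (SE; adjusted p = 0.388, limma), with an interval from 0.476-fold to 1.15-fold.

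The other 2 Csf1 probes are annotated to NM_001113530 and lie on chromosome 3, minus strand, at chr3:107548521-107548580 and chr3:107548550-107548609 (mm9), so 31 of their 60 bases are shared. Their first 30 bases are shown with the shared ones in capitals, because these 2 are not independent readings.
A_55_P2169669: CAGCTGCATCATATATTGTCATATGTTGAG
A_55_P2017914: cgtgcagattaagatcacattagttttaaC
The first of these had 1.37, 2.41, 1.34 and 1.97 in GFP-positive cells, against 2.5, 2.44, 2.08 and 3.07 in GFP-negative cells. All 4 GFP-negative arrays exceeded 3 of the 4 GFP-positive ones, and GFP-positive replicate 2 lay within the GFP-negative range. Its difference was -0.75 ± 0.29 and that of the second was -0.66 ± 0.30 (SE; adjusted p = 0.191 and 0.250 among all kept probes, limma).

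Il6, the cytokine of the acute phase response, was near the dim end with processed signals of 22.5 to 116, though well above background on every array. Its levels were -2.94, -4.14, -4.75 and -2.51 in GFP-positive cells, against -4.15, -2.23, -2.56 and -3.02 in GFP-negative cells. GFP-positive replicate 3 was lowest and GFP-negative replicate 2 highest, 5.72-fold apart. The difference was -0.60 ± 0.58 (adjusted p = 0.581, limma), with an interval from 0.261-fold to 1.68-fold. With normexp background correction it was -0.27.

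Lif, a relative of Il6 that keeps mouse embryonic stem cells undifferentiated, had -0.63, -0.54, -0.10 and -1.05 in GFP-positive cells, against -0.56, -1.50, -0.86 and -0.87 in GFP-negative cells. GFP-positive replicate 3 was highest and GFP-negative replicate 2 lowest, the same 2 arrays as for Cxcl5. The difference was 0.37 ± 0.25 (SE; adjusted p = 0.412, limma), with an interval from 0.869-fold to 1.92-fold.

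The arrays lay in 2 rows of 1 slide, scanned together, with GFP-positive replicates 1 and 3 and GFP-negative replicates 2 and 4 in row 1 and the others in row 2. For 8 of the 10 genes the difference had opposite signs in the 2 rows, as it had for 46.1% of all features. The median size of the difference over the 10 was 0.95 in row 1 and 0.24 in row 2, against 0.25 and 0.19 over all features. Cxcl16 differed by 1.56 in row 1 (adjusted p = 0.0247, limma with 2 arrays against 2, where 5.34% of features passed) and by -0.15 in row 2. Csf1 differed by -1.07 and 0.20, and Ccl2 by -1.04 and 0.77. Cxcl12 (0.45 and 0.10) and Ccl5 (0.19 and 1.08) kept a positive sign in both. In a test of the difference between the rows themselves 0 of the 10 passed in limma, against 1.22% of features. The lowest adjusted p values in that test were 0.0508 for Cxcl16 and 0.153 for Csf1 (limma). Within row 2 alone 0 of the 10 and 0 of all features passed in limma, and 10.9% of features had an unadjusted p under 0.05. Each replicate number was present in both rows. A change of the GFP difference between the rows is therefore the same contrast as replicates 1 and 3 against 2 and 4. These readings cannot be told apart in this layout, and the labels do not say which arrays shared an experiment.

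**Figure D2:**
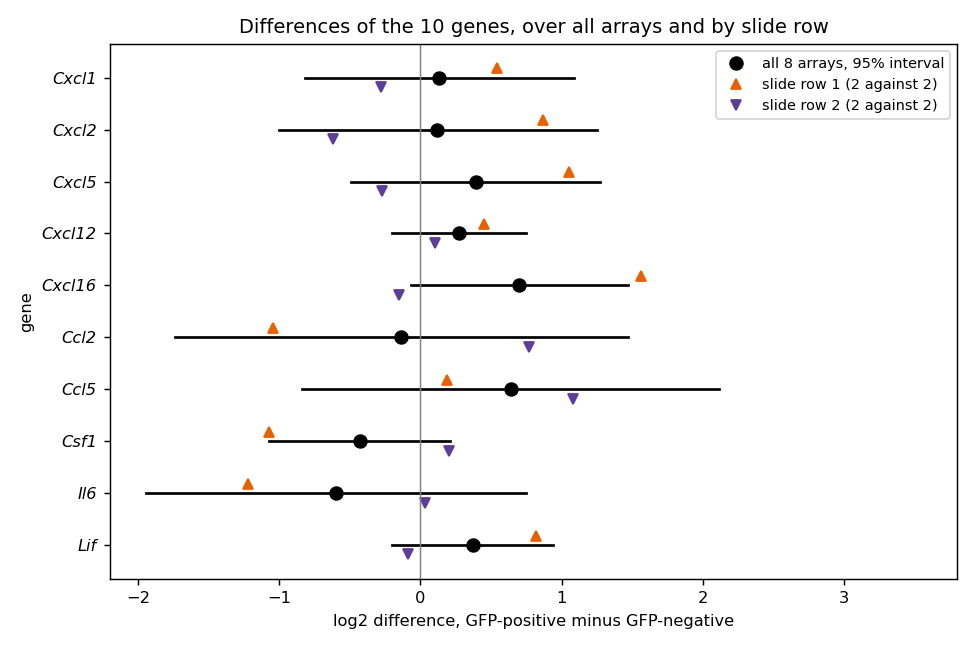
Log2 difference of GFP-positive minus GFP-negative cells (horizontal axis) for the 10 genes, as the fitted value with its 95% interval over 8 arrays (black) and as the plain difference of means in slide row 1 (orange) and row 2 (violet). Every interval includes 0, and the row 1 and row 2 values lie on opposite sides of 0 for 8 genes.

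Markers of other cell types varied over the same arrays. Of 10 fibroblast and stromal markers 8 were fitted and 0 passed in limma, with 1 lower at an unadjusted p under 0.05, against 15.1% of all features. The median difference of the 8 was -1.48, or -2.94 in row 1 and 0.54 in row 2. Their summed level, as a multiple of each array's 75th percentile, was 16.1, 37.2, 3.83 and 60.7 in GFP-positive replicates 1 to 4, against 14.2, 171, 98.9 and 119 in GFP-negative replicates 1 to 4. The collagen genes Col1a1, Col1a2 and Col3a1 and the genes Pdgfra, Pdgfrb and Dcn were well above background on all 8 arrays, whereas Lum and Fap were not on any. Those 6 detected genes had a negative sign. The other 2 fitted markers, Thy1 and Postn, were well above background on 7 and 6 arrays and had positive differences of 0.39 and 0.3. Col1a2 averaged a log2 level of 3.54 on GFP-positive arrays and 5.49 on GFP-negative arrays (adjusted p = 0.299, limma). GFP-positive replicate 3, where the sum was lowest, was also the lowest array for Il6 and Ccl2. GFP-negative replicate 2, where the sum was highest, was the highest for Il6 and the lowest for Cxcl1, Cxcl2, Cxcl5, Cxcl16 and Lif. The match did not hold throughout for Ccl2. Its level was 2.60 in GFP-positive replicate 1, where the sum was 16.1, and 1.62 in GFP-negative replicate 2, where the sum was 171.

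Of 10 mammary epithelial markers 9 were fitted, all 9 with a positive sign and 0 past the threshold in limma. At an unadjusted p under 0.05, 2 were higher, against 7.83% of all features. The median of the 9 was 0.39, or 1.01 in row 1 and -0.14 in row 2. Their summed level ran from 525 to 768 on GFP-positive and from 430 to 688 on GFP-negative arrays, highest in GFP-positive replicate 3 and lowest in GFP-negative replicate 2. The part of either marker list in the levels of the 10 genes was not tested.

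Leukocyte genes were mixed. Ptprc and Adgre1, which define leukocytes and macrophages, were well above background on 1 array each, and Lyz2 on 0. Of the 6 fitted leukocyte markers Cd68 rose by 1 and Cd14 by 0.56 log2 units (adjusted p = 0.00436 and 0.0498, limma). Over all features 1.82% rose. Csf1r, Itgam, Ly6g and Cd3e did not pass, with differences of 0.29, 0.026, 0.93 and -0.076. The summed level of the 6 ran from 23.1 to 30.9 on GFP-positive and from 18.6 to 24.6 on GFP-negative arrays. Of 8 endothelial markers 3 were fitted and 0 passed in limma, also at an unadjusted p under 0.05, and their sum ran from 6.41 to 7.99 on GFP-positive and from 6.42 to 8.10 on GFP-negative arrays. Cdh5, the endothelial cadherin, was not well above background on any array.

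Levels of some of the 10 genes followed each other over the arrays. Over the 8 arrays, 5 of 45 pairs passed by Pearson's r and 2 by Spearman's rho (exact permutation over arrays, Benjamini-Hochberg over the 45 pairs). These 5, or 11.1% of the pairs, had an r of 0.87 or more in size, which 2.75% of all pairs of features also reached. The arrays may not be independent, since each experiment may have given several of them, and the pairs are given as a description of these arrays. Cxcl5 and Lif rose and fell together, with r = 0.97 and rho = 0.95 (exact permutation p = 9.92e-05 and 0.00114, adjusted p = 0.00446 and 0.0257). Without the 2 arrays farthest from the median of Cxcl5, r was 0.96, and for deviations from the group means it was 0.98. Of the other features, 0.102% were as strongly correlated with Cxcl5.

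Cxcl1 and Cxcl2, the neighbours with the shared kappaB run, had r = 0.95 and rho = 0.88 (exact permutation p = 0.000670 and 0.00724, adjusted p = 0.0130 and 0.0652). Without the 2 arrays farthest in Cxcl1, GFP-negative replicate 2 and GFP-positive replicate 4, r was 0.75. Of the other features, 0.0508% (10 features) were as strongly correlated with Cxcl1.

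Il6 ran against Cxcl5 and Lif. For Cxcl5 and Il6, r was -0.91 and rho -0.98 (exact permutation p = 0.000868 and 0.000397, adjusted p = 0.0130 and 0.0179), and r was still -0.91 without the 2 arrays farthest in Cxcl5. For Il6 and Lif, r was -0.89 and rho -0.90 (exact permutation p = 0.00139 and 0.00456, adjusted p = 0.0156 and 0.0652), and -0.78 without the 2 arrays farthest in Il6. Of the other features, 0.817% were as strongly and negatively correlated with Cxcl5, and 2.18% as strongly and negatively with Lif as Il6 was. Cxcl16 and Lif had r = 0.87 and rho = 0.88 (exact permutation p = 0.00355 and 0.00724, adjusted p = 0.0319 and 0.0652), and 3.37% of features were as strongly correlated with Cxcl16. With 4 arrays in each row, r was not computed within rows.

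Ccl5 and Il6 had r = 0.75 over all arrays, not past the threshold (exact permutation p = 0.0406, adjusted p = 0.261; rho = 0.74, adjusted p = 0.229), and r = 0.98 for deviations from the group means, for which no test was made. Without the 2 arrays farthest in Ccl5, or the 2 farthest in Il6, r over the remaining arrays was 0.44. Of the other features, 4.2% were as strongly and positively correlated with Ccl5.

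**Figure D3:**
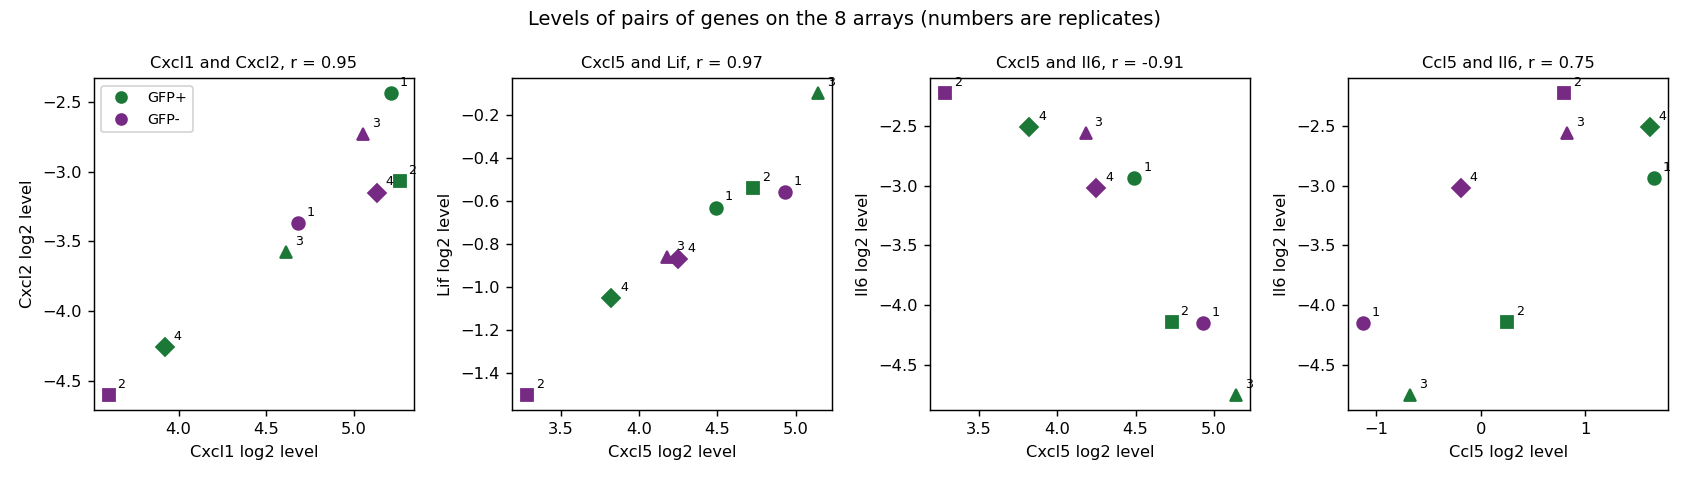
Log2 levels of pairs of genes on the 8 arrays, GFP-positive in green and GFP-negative in purple, with replicate numbers beside the points and Pearson's r above each panel. Cxcl1 with Cxcl2 and Cxcl5 with Lif lie along rising lines, Cxcl5 with Il6 along a falling one, and the fractions are mixed along each.

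Receptors of the factors were measured in part. Of 16 receptors and co-receptors 6 were fitted (Ackr3, Csf1r, Cxcr6, Il6ra, Il6st and Lifr) and 0 passed in limma. At an unadjusted p under 0.05, 1 was lower, against 15.1% of all features. Of the 6, 1 had a positive and 5 a negative sign, with a median of -0.21 (-0.42 in slide row 1 and 0.23 in row 2). Cxcr4 and Ccr2 were not well above background on any array, and Cxcr2 was so on 2 GFP-positive arrays and 0 GFP-negative ones. Ackr3, the scavenging receptor of Cxcl12, was at 2.22 ± 0.29 in the GFP-positive fraction and 2.23 ± 0.23 in the GFP-negative one (SD, n = 4 each), a difference of -0.015 (adjusted p = 0.967, limma). Csf1r, the receptor of Csf1, was at 3.32 ± 0.68 in the GFP-positive fraction and 3.03 ± 0.48 in the GFP-negative one, a difference of 0.29 ± 0.36 (SE; adjusted p = 0.673, limma), and its other 2 kept probes differed by 0.30 and 0.20.

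Il6st, gp130, was at 2.02 ± 0.10 in the GFP-positive fraction and 2.29 ± 0.15 in the GFP-negative one, a difference of -0.28 ± 0.095 (SE; adjusted p = 0.141, limma). Lifr, its partner in the Lif receptor, was at -3.58 ± 0.74 in the GFP-positive fraction and -2.70 ± 0.50 in the GFP-negative one, a difference of -0.88 ± 0.39 (SE; adjusted p = 0.225, limma). The other 2 Lifr probes were well above background on 2 and 3 arrays and were not fitted.

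Of 27 other cytokines and growth factors that act on leukocytes or through gp130, 18 were fitted, with a median of 0.28 (0.49 in slide row 1 and -0.10 in row 2). Il7 and Ctf1 rose and 0 fell, against 1.82% of all features that rose and 0.741% that fell. Il15 also passed, but it entered the fit only through the arrays of the fraction where it was high, so it is described and not counted as support. Il7, a survival factor of lymphocytes, had -1.81, -1.93, -2.01 and -1.97 in GFP-positive cells, against -2.86, -2.35, -2.72 and -2.66 in GFP-negative cells. The groups did not overlap, and the rise was 0.71 ± 0.12 or 1.64-fold (adjusted p = 0.0224, limma). The call was lost without each of GFP-positive replicates 1, 3 and 4 and GFP-negative replicates 3 and 4, with adjusted p up to 0.0927, and the difference was 0.43 with normexp background correction.

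Il15, a growth factor of natural killer and memory T cells, was well above background on all 4 GFP-positive arrays (-3.66, -3.93, -3.64 and -3.62) and on 0 GFP-negative arrays (-6.16, -5.59, -5.00 and -5.05). By processed signals, against the lowest signal well above background or the probe's own where higher, it was higher in GFP-positive cells by at least 2.56-fold. That bound holds for the processed signals only. With normexp background correction the log2 difference was 0.37, a smaller fold, and Il15 still passed (adjusted p = 0.0399, limma). The call was lost without each of GFP-positive replicates 1 and 3 and GFP-negative replicate 2, with adjusted p up to 0.0608 (limma). Within slide row 2 alone, where 0 of all features passed, Il15 did not pass either (adjusted p = 0.431, limma).

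Ctf1, cardiotrophin 1, a ligand that signals through gp130 and Lifr, had 0.75, 0.62, 0.76 and 0.68 in GFP-positive cells, against 0.42, 0.28, 0.32 and 0.17 in GFP-negative cells. The groups did not overlap, and the rise was 0.40 ± 0.078 (SE; adjusted p = 0.0421, limma). It did not pass without any 1 of the 8 arrays, with adjusted p from 0.0512 to 0.149.

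Of 14 genes for sheddases and for JAK and STAT3 signalling, all 14 were fitted, with a median of -0.086. Of these, 1 rose and 0 fell, against 1.82% and 0.741% of all features. The one that rose was Cish, a feedback inhibitor of cytokine receptors induced by STAT5. It had -1.07, -1.31, -1.15 and -1.16 in GFP-positive cells, against -1.90, -1.96, -1.81 and -2.23 in GFP-negative cells. The rise was 0.80 ± 0.11 or 1.74-fold (adjusted p = 0.00974, limma), 0.98 in slide row 1 and 0.62 in row 2, and it passed without each of the 8 arrays (adjusted p from 0.0172 to 0.0490). It did not pass with the replicate number as a block (adjusted p = 0.0530) or within row 2 alone (adjusted p = 0.376). Socs3, the feedback inhibitor induced by STAT3, was at 3.76 ± 0.31 in the GFP-positive fraction and 3.85 ± 0.36 in the GFP-negative one (SD, n = 4 each), a difference of -0.089 (adjusted p = 0.842, limma).

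Of 23 NF-kappaB factors, kinases and feedback inhibitors 22 were fitted and 0 passed in limma, with a median of -0.046. At an unadjusted p under 0.05, 4 were lower and 0 higher, against 15.1% and 7.83% of all features. Nfkbia, the inhibitor that NF-kappaB itself induces, was at 6.28 ± 0.54 in the GFP-positive fraction and 6.19 ± 0.52 in the GFP-negative one, a difference of 0.083 ± 0.33 (SE; adjusted p = 0.909, limma). Tnfaip3, the feedback inhibitor A20, was at 3.52 ± 0.37 in the GFP-positive fraction and 3.25 ± 0.49 in the GFP-negative one, a difference of 0.27 ± 0.27 (SE; adjusted p = 0.589, limma). Of 8 regulators of cytokine mRNA decay all 8 were fitted and 0 passed in limma, with a median of -0.006. At an unadjusted p under 0.05, 3 were lower, against 15.1% of all features.

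Other chemokines did not pass either. Of 10 further CXC chemokines 5 were fitted and 0 passed in limma, also at an unadjusted p under 0.05, with a median of -0.076. Of 19 further CC, C and CX3C chemokines 8 were fitted and 0 passed in limma, with a median of -0.028. At an unadjusted p under 0.05, 1 was lower, against 15.1% of all features.

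**Figure D4:**
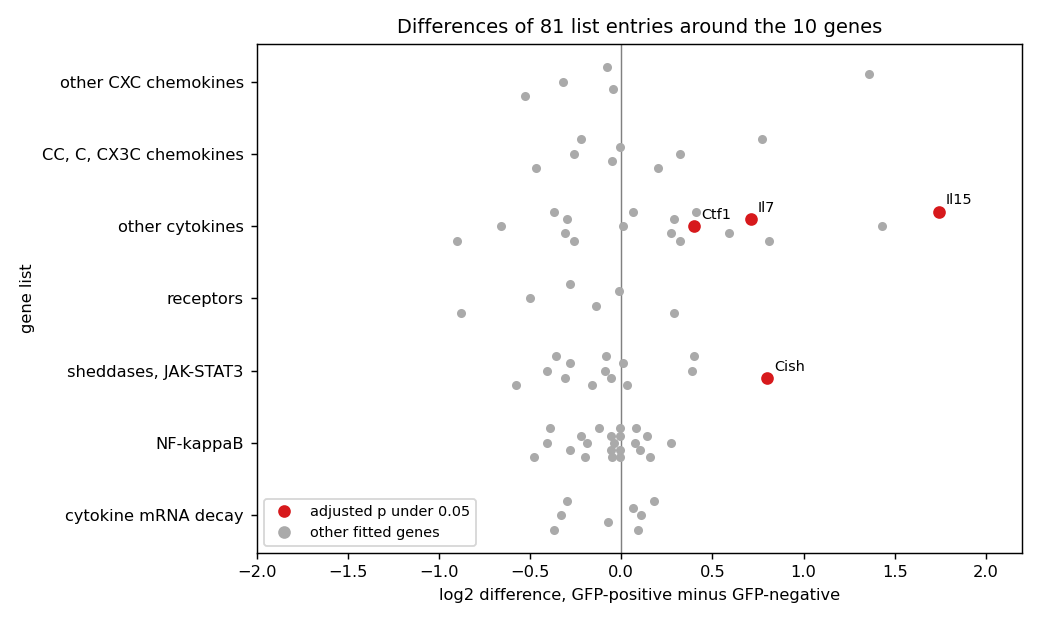
Log2 difference of GFP-positive minus GFP-negative cells (horizontal axis) for the 81 fitted entries of 7 gene lists around the 10 genes, 1 point per entry and offset vertically only to separate points. The 4 entries past an adjusted p of 0.05 (red) are Il7, Il15, Ctf1 and Cish, all on the positive side. The Il15 point is the fitted value, with GFP-negative signals not well above background, and it passed the filter only through the GFP-positive arrays.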

How the data were processed

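Each deposited file held the scanner output of 1 array (1 colour, Cy3). Per the file headers it was made by Agilent Feature Extraction 10.7.3.1 with protocol GE1_107_Sep09 and probe positions on mm9, and the deposited intensity values (processed signal) were already background-corrected and not scaled between arrays. What the authors did after scanning is not stated in the labels.

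Between 106 and 186 outlier spots per array were left out. Log2 processed signals were set relative to each array's 75th percentile and averaged per probe. Probes that 4 or more of 8 arrays showed well above background were kept (27590), 45.1% to 57.4% were well above background per array and no spot was saturated. Gene symbols came from GRCm38.p6 accessions (49.4% of probes) or the file. The brightest kept probe represented a gene. The difference of GFP-positive minus GFP-negative cells came from limma 3.58.1 in R 4.3.3, two-sided, without a replicate block, with Benjamini-Hochberg adjustment over all features. The number of arrays limits precision, and p-values measure the spread between these 8 arrays.

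The 10 genes and the lists were chosen with earlier results of these data known. Named were the 10 genes, up to 4 called genes of each list, 10 receptors and regulators whatever their result, and the 3 features most like the member with the largest difference. Marker genes were named outside that rule. Alternatives are in the closing section. Only the limma fit and its adjustment were tested on simulated data, which were gene levels with independent noise.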

Additional observations from a re-analysis of the deposited data

Results flagged for a closer look

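Among 54 groups of 4 arrays examined (each of the 13 probes and the other fitted named genes in each fraction), 2 held an array far from the other 3 by Dixon's test, and chance gives about 1 in 20. The level of Cxcl12 (probe of NM_001012477) in GFP-negative replicate 1 was 2.58, against 1.68 to 1.81 in the other 3 GFP-negative arrays. Without that array the Cxcl12 difference was 0.48 (adjusted p = 0.0969, limma). The level of Il15 in GFP-positive replicate 2 was -3.93, against -3.66 to -3.62 in the other 3 GFP-positive arrays. The causes were not tested.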

How the results depend on the processing

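Over 20 other settings for each of the 10 genes, 183 of 200 values kept their sign and stayed short of the threshold, 1 passed it and 16 had the opposite sign. The one that passed was Cxcl16 within slide row 1 (1.56). Within slide row 2 the sign was opposite for Ccl2 (0.77), Csf1 (0.20), Cxcl1 (-0.28), Cxcl16 (-0.15), Cxcl2 (-0.62), Cxcl5 (-0.27), Il6 (0.031) and Lif (-0.087). Leaving out arrays turned the sign of Ccl2 (0.44 when GFP-positive replicate 3 and 0.27 when GFP-negative replicate 4 was left out, within a range from -0.53), Cxcl1 (-0.019, -0.037 and -0.20 without GFP-positive replicates 1 and 2 and GFP-negative replicate 2, up to 0.41) and Cxcl2 (-0.17 and -0.26 without GFP-positive replicate 1 and GFP-negative replicate 2, up to 0.43). Ccl2 was 0.061 with array weights.

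The count of features past the threshold, 505, was 786 with normexp, 154 without the filter on dim probes, where more probes were tested, 278 with slide row as a block, 1449 with array weights, 1166 with an intensity trend and robust prior, 1053 within row 1 and 0 within row 2 in limma (2146 at an unadjusted p under 0.05). Of the 505, 359 were higher and 146 lower, against 424 and 362 with normexp, 348 and 79 with quantile normalization, 675 and 774 with array weights, 537 and 629 with the trend, 240 and 38 with the row block, 189 and 26 with the replicate block and 152 and 2 without the filter. Leaving out 1 array gave 151 (GFP-positive replicate 1) to 428 (GFP-positive replicate 2), with 224 and 283 for GFP-positive replicates 3 and 4 and 319, 223, 229 and 201 for GFP-negative replicates 1 to 4. With the replicate block 215 features passed. That block changed no call of the 10 genes, while the adjusted p was 0.0530 for Cish, 0.0924 for Il7 and 0.119 for Ctf1. Deviations of same-numbered arrays from their group means correlated at -0.027, 0.07, 0.021 and 0.18. The best GFP-negative partners of GFP-positive replicates 1, 2, 3 and 4 were replicates 3, 4, 1 and 2, so the numbers were not taken to pair them. These best partners all lay within replicates 1 and 3 or within replicates 2 and 4. With quantile normalization 2 of the JAK and STAT3 genes passed and Il7 did not (adjusted p = 0.0545). Without the filter on dim probes Il7 (0.101) and Ctf1 (0.200) did not pass, and the slide row block took the call of Ctf1 (adjusted p = 0.0789). The causes were not tested. The added settings were chosen after seeing the data.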
